A study of Mus musculus with 3 samples.

Results

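Thy1, Cd34, Pdpn, Fap, Dpp4, Pi16, Ly6a, Ly6c1 and Cd248 are 9 genes whose products are used to sort and name fibroblasts of the synovium. The synovium is the tissue that lines joints. The genes are 9 of the 32285 in the tables and were taken by name, with earlier results of these data known. The study profiled cells of mouse hind paws in K/BxN serum transfer arthritis, an antibody-driven arthritis that follows an injection of serum from arthritic K/BxN mice into the peritoneum (200 µl). CD45-negative (stromal) cells were sorted at day 5 after serum and at steady state, which the study calls day 0, and CD45-positive, CD11b-positive, Ly6G-negative (myeloid) cells at day 9, with 1 library of each. Skin, muscles and tendons had been taken off the paws, and the remaining tissue had been digested with collagenase and deoxyribonuclease. Strain, age and the number of mice per library are not stated in the sources used here, so animals cannot be told apart, and neither can a day and its library.

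Synovial fibroblasts form a thin lining layer at the joint space, which makes the lubricant lubricin, encoded by Prg4, and a sublining around the vessels. Thy1, a small protein held in the membrane by a lipid (GPI) anchor, is known as the mark that separates sublining from lining in mouse and human joints. Cd34 and Pi16 are known from fibroblasts around vessels, and Dpp4 together with Pi16 from a widely shared adventitial type. Fap and Pdpn are known to go up in inflamed synovium.

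Fibroblasts were taken as cells with at least 1 UMI (a counted RNA molecule) of Pdgfra, the gene of a platelet-derived growth factor receptor, among cells that had 500 genes or more, 1000 UMIs or more and no more than 10% of UMIs from mitochondrial genes. This gave 9397 of 11172 cells at day 5 (84.1%) and 6165 of 7368 cells at day 0 (83.7%), against 14 of 5945 cells in the myeloid library. Median depth of the Pdgfra-positive cells was 9800 UMIs at day 5 and 10211 UMIs at day 0. The stromal libraries shared 32 barcodes. Levels are UMIs of a gene per 1000000 UMIs of the pooled cells (CPM). With 1 library per group there is no test and no p-value: intervals are exact 95% intervals for counting error alone, and a change of at least 1.5-fold is named as a size, not as a call. A lower level of a pooled RNA can come from fewer cells with it or from less of it per cell, and shares of cells are given beside levels for that reason.

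All stromal cells were also clustered together on genes other than these 9, Pdgfra, Prg4 and Saa3. Of 22 clusters, 15 showed at least 5 of 7 fibroblast markers and took no other cell type's name, and they held 89.05% of the Pdgfra-positive cells at day 5 and 87.4% at day 0. Cluster 11, led by Clic5, Pla1a and Htra4, was lining-like, and Prg4 was among its leading genes and among the markers that gave this name. Cluster 6, led by Efhd1, Pou2f2 and Pi16, with Sema3c and Cd55 among its leading genes, was adventitial-like. Cluster 13, led by the acute-phase gene Saa3 with Ptx3, Lcn2 and Ccl2, was inflammatory fibroblast-like and held 1546 Pdgfra-positive cells at day 5 against 31 at day 0. A tenocyte-like cluster (Coch, Fmod, Thbs4, Chad) and an osteoblast-like cluster (Bglap, Ibsp, Dmp1, Ifitm5) were also found, in paws from which tendons had been taken off. The 7 fibroblast markers do not set these 15 clusters apart from the rest: none had one among its 10 leading genes, and the other 7 clusters also showed 6 or 7 of them. In 5 of the 15 the leading genes included markers of another cell type, namely the tenocyte genes Kera and Tnmd in cluster 5, the osteoblast gene Alpl in cluster 3, the neutrophil genes S100a9 and S100a8 with the mural gene Abcc9 in cluster 8, the mural gene Rgs5 in cluster 11 and the keratinocyte gene Krtdap in cluster 7. The name fibroblast therefore rests on the lack of another type's name and on Pdgfra, which 89.9% of cells in these clusters had at day 5 and 90.5% at day 0.

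The genes lie as follows in the mm10 annotation. Thy1 (ENSMUSG00000032011) spans chr9:44043384-44048579, Cd34 (ENSMUSG00000016494) chr1:194938819-194961279 and Cd248 (ENSMUSG00000056481) chr19:5068078-5070682. Pdpn (ENSMUSG00000028583) spans chr4:143267431-143299564 and Pi16 (ENSMUSG00000024011) chr17:29317680-29330593. The related proteases Fap (ENSMUSG00000000392) and Dpp4 (ENSMUSG00000035000) lie on the same strand at chr2:62500943-62574075 and chr2:62330073-62412231. Ly6a (ENSMUSG00000075602) and Ly6c1 (ENSMUSG00000079018) lie on the same strand at chr15:74994877-74998031 and chr15:75044018-75048830. All are protein coding. Cd34, Dpp4 and Pi16 each overlap an antisense gene, and whether counting used the strand is not stated in the sources used here.

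Ly6c1 has a near-identical copy, Ly6c2, known as the form of monocytes. Their coding sequences of 396 bases share 387 bases (97.7%), so the ends of both coding sequences are shown to let a reader judge how reads are told apart. The last 60 coding bases (minus strand; chr15:75045402-75045461 for Ly6c1 and chr15:75108543-75108602 for Ly6c2; GENCODE transcripts Ly6c1-201 and Ly6c2-201) differ at 1 base, in capitals:
Ly6c1: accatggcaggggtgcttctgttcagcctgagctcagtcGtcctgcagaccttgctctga
Ly6c2: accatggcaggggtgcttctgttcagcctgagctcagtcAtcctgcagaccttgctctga
Of the 241 windows of 60 bases in the last 300 bases of the Ly6c1 transcript, 65 also occur in a Ly6c2 transcript. In the data, however, the copies were separate by cell type. Pdgfra-positive cells had 115560 UMIs of Ly6c1 and 25 of Ly6c2 at day 5, and 108735 of Ly6c1 and 23 of Ly6c2 at day 0. The myeloid library had 428 UMIs of Ly6c1 and 9487 of Ly6c2. How reads that match both were assigned is not stated in the sources used here.

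Over all Pdgfra-positive cells, 1 of the 9 genes was at least 1.5-fold higher at day 5 than at day 0 (Pdpn) and 3 were at least 1.5-fold lower (Cd34, Cd248 and Ly6c1). Of 15914 genes with at least 20 UMIs over both libraries, 10.0% were at least 1.5-fold higher, 7.97% at least 1.5-fold lower and 18.0% either. The counting interval of the ratio lay below 1 for 7 of the 9, against 29.4% of all genes counted, and above 1 for the other 2 (Pdpn and Fap), against 30.7%. An interval narrows as counts grow, so these shares depend on how abundant the genes are. The median log2 ratio of the 9 was -0.21, against 0.01 over all genes counted. A setting added after the data were seen left out the 5 clusters with another type's markers among their leading genes. These include the lining-like cluster 11 and cluster 7, each with 1 such gene. In that setting the same 3 genes were at least 1.5-fold lower and Pdpn was 1.92-fold higher. Haemoglobin RNA moved with the day: 5 erythroid genes summed to 232 CPM at day 5 and 10.5 CPM at day 0 in Pdgfra-positive cells (5 genes seen at day 5, 4 at day 0), and its part in these ratios was not tested.

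**Figure D1:**
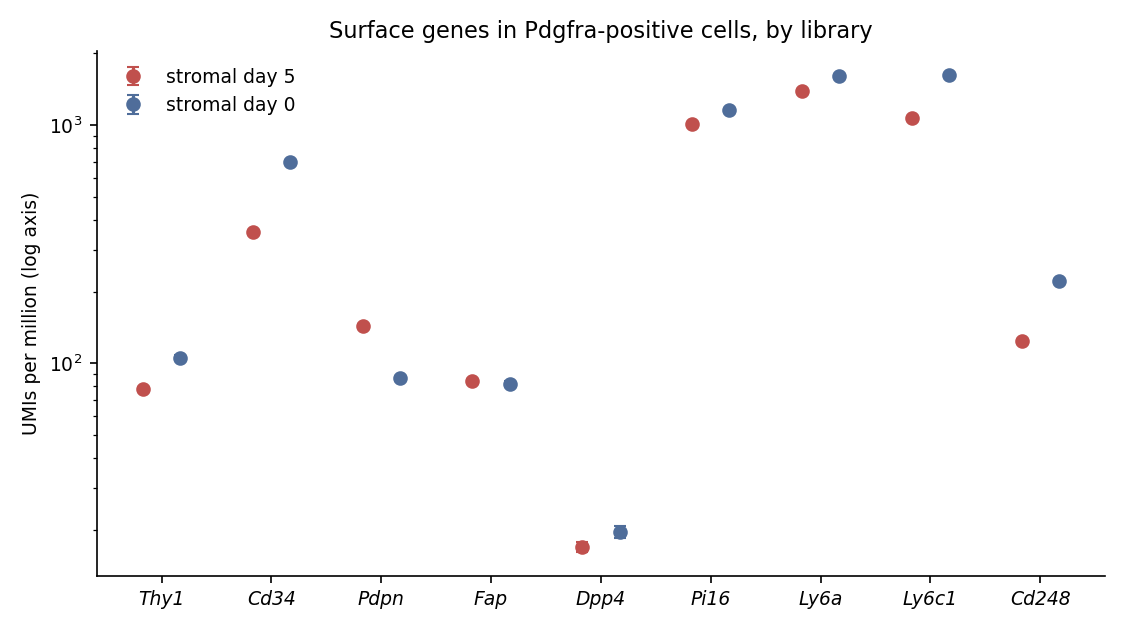
Level of each gene in Pdgfra-positive cells, in CPM on a log axis, in the day 5 library (red) and the day 0 library (blue); bars are exact 95% counting intervals, mostly smaller than the points. Pdpn stands higher at day 5 (144 CPM against 86.6 CPM at day 0), and Cd34 (356 against 697 CPM) and Cd248 (124 against 222 CPM) stand lower.

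Cd34, a sialomucin of the vessel wall and of fibroblasts near it, had 356 CPM (352 to 360) at day 5 and 697 CPM (691 to 704) at day 0. It was thus 1.96-fold lower at day 5 (1.93 to 1.99), the largest change among the 9 in that direction. After each cell was thinned to 4000 UMIs, 59.1% of cells (58.1 to 60.1) had a Cd34 UMI at day 5, against 75.9% (74.8 to 77.0) at day 0. Before thinning, cells with the gene also held fewer molecules of it, on average 5.32 UMIs per positive cell at day 5 and 8.99 at day 0. Of the 13 fibroblast clusters with at least 50 Pdgfra-positive cells in each library, 12 had less Cd34 at day 5, 11 of them by at least 1.5-fold. Cluster 14, led by Hmcn2 and Smoc2, had 706 CPM at day 5 and 1460 CPM at day 0. The exception was the lining-like cluster 11, where Cd34 was low on both days (89.7 CPM at day 5, 80.7 CPM at day 0), with a ratio of 1.11 (0.933 to 1.33).

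Cd248, which encodes endosialin, a C-type lectin-like protein of pericytes and fibroblasts, had 124 CPM (122 to 126) at day 5 and 222 CPM (218 to 225) at day 0. It was 1.79-fold lower at day 5 (1.75 to 1.83). In thinned cells it was seen in 28.4% at day 5 and 39.9% at day 0. Again 12 of 13 clusters had less at day 5 and the lining-like cluster did not, with 147 CPM at day 5 and 125 CPM at day 0 (ratio 1.17, 1.02 to 1.35). The clusters' ratios ran from 0.482 to 1.17.

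The GPI-anchored Ly6 genes differed in size of change. Ly6c1 had 1072 CPM (1066 to 1078) at day 5 and 1614 CPM (1605 to 1624) at day 0, a level 1.51-fold lower at day 5 (1.49 to 1.52) that lies on the 1.5-fold line. Ly6a, which encodes Sca-1, a marker of mouse progenitor cells, had 1387 CPM (1380.4 to 1394) at day 5 and 1598 CPM (1589 to 1608) at day 0, a ratio of 0.868 (0.861 to 0.875). Both were in most cells on both days: Ly6a in 85.96% of thinned cells at day 5 and 90.5% at day 0, Ly6c1 in 81.5% at day 5 and 89.7% at day 0. Ly6c1 was lower at day 5 beyond counting error in 10 of 13 clusters, most in cluster 1, led by Penk and Apoe, with 630.2 CPM at day 5 and 1668 CPM at day 0. Ly6a was lower in 7 of 13 clusters and higher in 4. In the adventitial-like cluster 6, Ly6a had 2986 CPM at day 5 and 2584 CPM at day 0.

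Endothelial cells also make Cd34, Ly6a and Ly6c1. The summed level of 7 blood endothelial markers in Pdgfra-positive cells was 17.9 CPM at day 5 and 9.65 CPM at day 0, with all 7 seen on both days, against 4040.0 CPM at day 5 and 5173 CPM at day 0 in the endothelial cluster itself. Within the fibroblast clusters alone the ratios were 0.502 for Cd34, 0.669 for Ly6c1 and 0.858 for Ly6a, and the part of endothelial RNA in these values was not tested.

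Thy1 had 78.0 CPM (76.3 to 79.7) at day 5 and 105.5 CPM (103 to 108) at day 0, 1.35-fold lower at day 5 (1.31 to 1.40). It was seen in 20.9% of thinned cells at day 5 and in 27.7% at day 0. Its level was lower beyond counting error in 9 of 13 clusters and higher in 1, the lining-like cluster, with the clusters' ratios at a median of 0.774. The lining-like cluster stood apart on both days with the least Thy1 of the 15 fibroblast clusters. It had 9.76 CPM (6.63 to 13.9; 31 UMIs in 190 cells) at day 5 and 3.37 CPM (1.62 to 6.21; 10 UMIs in 161 cells) at day 0. Cluster 6 had 163 CPM at day 5 and 210.4 CPM at day 0. Cluster 14 had 144 CPM at day 5 and 223 CPM at day 0.

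Pdpn, which encodes podoplanin, the ligand of the platelet receptor CLEC-2, was the gene at least 1.5-fold higher. It had 144 CPM (141 to 146) at day 5 and 86.6 CPM (84.4 to 88.9) at day 0, 1.66-fold higher at day 5 (1.61 to 1.71). The share of thinned cells with a UMI was close, 30.7% at day 5 and 28.1% at day 0. Before thinning, positive cells held 3.13 UMIs on average at day 5 and 1.82 at day 0. The cell with the most, also before thinning, had 72 UMIs at day 5 and 10 at day 0. With each cell thinned to 2000 UMIs the ratio of levels was 1.38. The Saa3-led cluster 13 carried 51.2% of all Pdpn UMIs at day 5 from 16.5% of the Pdgfra-positive cells, at 321 CPM (314 to 328). Outside that cluster the ratio of day 5 over day 0 was 1.05, a setting added after the data were seen.

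Within clusters Pdpn went both ways. In the lining-like cluster 11 it had 148 CPM at day 5 and 69.5 CPM at day 0, a ratio of 2.13 (1.80 to 2.52). Cluster 14 (ratio 1.81, 1.41 to 2.34) and cluster 8 (1.68, 1.31 to 2.17) also had more at day 5. Cluster 7, led by Adh7 and Dpep1, had 66.2 CPM at day 5 and 108 CPM at day 0 (0.610, 0.542 to 0.687), and 3 others were lower beyond counting error. With the clusters weighted by their day 0 share of UMIs, the ratio was 0.980. The mean of each cell's own CPM gave 1.36. RNA of neutrophils was higher at day 5, with 6 marker genes summing to 17.2 CPM at day 5 and 0.134 CPM at day 0 (all 6 seen at day 5, 3 at day 0). In cells without a UMI of Ptprc, S100a8 or S100a9 the Pdpn ratio was 1.65.

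Fap, the gene of fibroblast activation protein, a membrane-bound serine protease, had 84.6 CPM (82.9 to 86.4) at day 5 and 81.8 CPM (79.6 to 84.0) at day 0. The ratio was 1.04 (1.00 to 1.07). In thinned cells it was seen in 25.4% at day 5 and 23.7% at day 0. Across the 13 clusters the ratio ran from 0.759 to 1.16, the narrowest range of the 9 genes, and no cluster reached a 1.5-fold difference. In the Saa3-led cluster Fap had 83.1 CPM at day 5, close to its level over all cells of that day, and 138 CPM (102 to 183) in its 31 cells at day 0.

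Dpp4, the gene of a related peptidase that trims chemokines and incretins, had 16.99 CPM (16.2 to 17.8) at day 5 and 19.6 CPM (18.6 to 20.7) at day 0, a ratio of 0.865 (0.805 to 0.929). Within clusters the values ran the other way. Of 13 clusters, 11 had a higher level at day 5, 9 of them by at least 1.5-fold and 5 beyond counting error, and none was lower beyond counting error. The counts are small outside a few clusters: the highest ratio, 3.74 (0.879 to 33.5) in cluster 1, rests on 16 UMIs at day 5 and 2 at day 0. Cluster 6 had 119 CPM (110.1 to 129) at day 5 and 78.5 CPM (73.1 to 84.2) at day 0. Cluster 7 had 36.3 CPM at day 5 and 13.5 CPM at day 0. Cluster 6 made up 5.77% of Pdgfra-positive cells at day 5 and 15.3% at day 0, and it held 34.95% of all Dpp4 UMIs at day 5 and 60.02% at day 0. With the clusters weighted equally the ratio was 1.40, and with their day 0 shares of UMIs, a weighting added after the data were seen, it was 1.43.

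Pi16, which encodes peptidase inhibitor 16, a protein of the CAP family, had 1009 CPM (1003 to 1015) at day 5 and 1149 CPM (1141 to 1158) at day 0, a ratio of 0.878 (0.870 to 0.886). The share of thinned cells with the gene was 48.4% at day 5 and 48.3% at day 0, with intervals that overlap. In cluster 6, Pi16 had 4006 CPM at day 5 and 3683 CPM at day 0, and nearly every cell carried it. That cluster held 19.8% of the Pi16 UMIs at day 5 and 48.1% at day 0. The Saa3-led cluster held 30.8% at day 5, at 1355 CPM. Of 13 clusters, 6 were higher beyond counting error at day 5 and 5 were lower. The lining-like cluster had 140.4 CPM at day 5 and 114 CPM at day 0, the least of the 15 fibroblast clusters on both days.

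**Figure D2:**
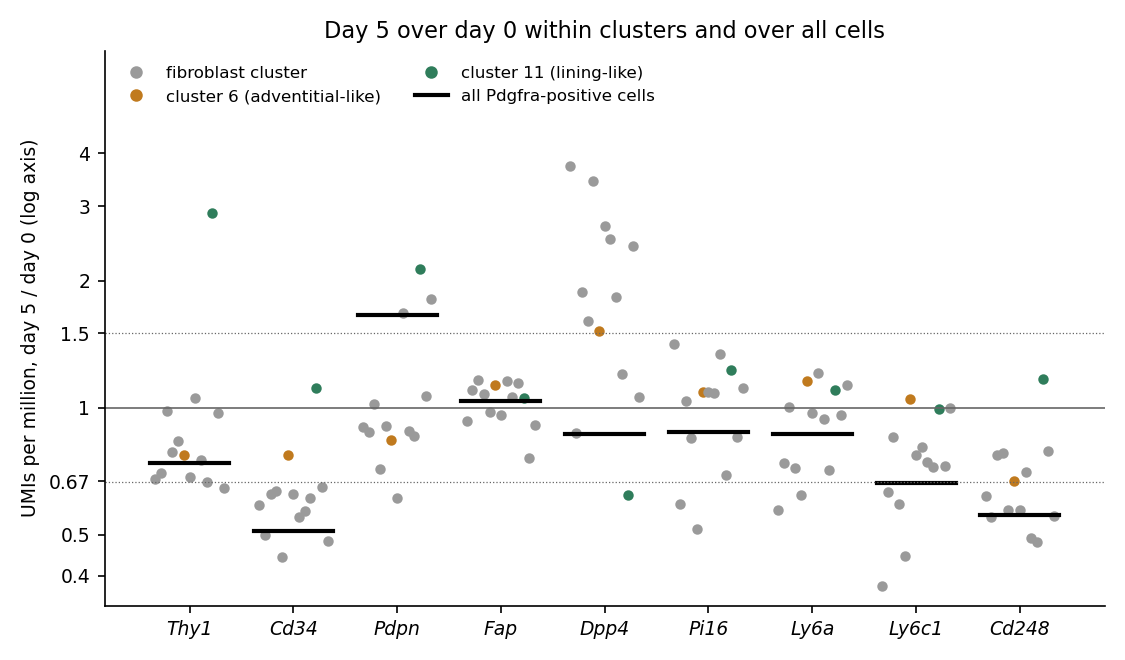
Ratio of the CPM of day 5 over that of day 0 (log axis) for each gene, in each of the 13 fibroblast clusters with at least 50 Pdgfra-positive cells per library (points) and over all Pdgfra-positive cells (black bars); dotted lines mark 1.5-fold. The Cd34 points lie below 1 except the lining-like cluster, and most Dpp4 points lie above 1 while the bar lies at 0.865.

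Co-detection was counted per Pdgfra-positive cell after thinning to 4000 UMIs, which left 9051 cells at day 5 and 5999 at day 0, so that deep cells do not appear to share every gene. An odds ratio above 1 means that a cell with a UMI of the first gene more often had a UMI of the second.

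Thy1 and Prg4 were found together slightly less often than their separate shares would give. Both were seen in 11.2% of cells at day 5, against 12.1% from the separate shares. At day 0 these values were 12.6% and 13.2%. Prg4 was seen in 53.6% of cells with Thy1 (51.4 to 55.9) and 58.6% of cells without it (57.4 to 59.7) at day 5, and in 45.6% (43.2 to 48.0) and 48.5% (47.0 to 50.02) at day 0. The odds ratio was 0.818 (0.738 to 0.907) at day 5 and 0.889 (0.792 to 0.997) at day 0. Without thinning it was 1.25 (1.14 to 1.37) at day 5 and 1.15 (1.03 to 1.27) at day 0, so the direction depended on thinning. Within fibroblast clusters of thinned cells, the interval lay below 1 in 2 of 14 clusters with a value at day 5. At day 0 it lay below 1 in 0 of 11, and it lay above 1 in 0 on either day. Prg4 RNA was spread widely: after thinning 30.6% of endothelial cells at day 5 and 14.1% at day 0 had a UMI of it, and their median depth was 11468 UMIs at day 5 and 7150 UMIs at day 0, against 9808 UMIs at day 5 and 10194 UMIs at day 0 in the fibroblast clusters.

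A clear split of the genes was seen in the lining-like cluster, where 98.4% of thinned cells had Prg4 and 3.23% had Thy1 at day 5, and 98.7% had Prg4 and 1.26% had Thy1 at day 0. Prg4 is among the markers that named this cluster, so its share there is not independent of the name. Thy1 is not among them. Prg4 reached 50024 CPM in the lining-like cluster at day 5 and 56508 CPM at day 0, against 5635 CPM in the Saa3-led cluster at day 5. Cells with at least 20 Prg4 UMIs had 75.6 CPM of Thy1 (72.7 to 78.7; 1963 cells) at day 5 and 77.4 CPM (72.8 to 82.3; 942 cells) at day 0. Cells with no Prg4 UMI had 82.5 CPM (78.9 to 86.3) at day 5 and 105 CPM (100.5 to 109) at day 0. Those cells also differed in Pdpn, with 236 CPM above that Prg4 level and 81.7 CPM without Prg4 at day 5, and 76.3 CPM above it and 87.1 CPM without Prg4 at day 0. Median depth was 14201 UMIs above that level and 8573 UMIs without Prg4 at day 5, and 12774 UMIs above it and 9184.5 UMIs without Prg4 at day 0.

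Fap and Saa3 were near independent at day 5. Saa3 was seen in 7.13% of cells with Fap (6.11 to 8.26) and in 7.04% of cells without it (6.44 to 7.67), an odds ratio of 1.01 (0.838 to 1.22). At day 0 Saa3 was in 16 thinned cells, 6 of them with Fap, and the odds ratio of 1.94 (0.578 to 5.90) covers 1. Saa3 had 597 CPM at day 5 and 3.30 CPM at day 0. The level of Fap did not follow it: cells with at least 10 Saa3 UMIs at day 5 (389 cells) had 82.1 CPM of Fap (75.8 to 88.9), against 84.7 CPM (82.8 to 86.6) in cells with none. Other genes did differ between these cells. Those with at least 10 Saa3 UMIs had 297 CPM of Pdpn, 206 CPM of Cd34 and 5.05 CPM of Dpp4, and those with none had 126, 373 and 18.3 CPM. Their median depth was 17164 UMIs against 9554 UMIs.

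Pi16 and Dpp4 were often together. Of cells with Dpp4, 81.6% had Pi16 at day 5 (78.0 to 84.8) and 82.5% at day 0 (78.3 to 86.2). Of cells without Dpp4, 46.4% had Pi16 at day 5 and 46.0% at day 0. The odds ratio was 5.11 (4.07 to 6.48) at day 5 and 5.54 (4.204 to 7.40) at day 0. The converse is rare: of cells with Pi16, 9.70% had Dpp4 at day 5 and 10.6% at day 0. In cluster 6, where 96.7% of cells at day 5 and 95.5% at day 0 had Pi16, the odds ratio was 0.978 (0.325 to 3.28) at day 5 and 1.39 (0.619 to 3.55) at day 0. At day 5 the interval lay above 1 in 5 of the 11 clusters with a value, where the 11 include cluster 6. The 5 included cluster 2 (4.01, 1.79 to 9.43), cluster 7 (1.91, 1.06 to 3.68) and cluster 13 (6.18, 2.15 to 24.3). At day 0 it lay above 1 in 0 of 6 clusters with a value, cluster 6 again included. Cells with Dpp4 were few outside cluster 6 at day 0. Cluster 2 had 1.35 (0.714 to 2.56) with 47 such cells, and cluster 7 had 5.43 (0.813 to 231) with 16. Pooled over clusters, cells with more Dpp4 also had more Cd34. Cells with at least 3 Dpp4 UMIs had 882 CPM of Cd34 at day 5 and 1394 CPM at day 0, against 306 CPM at day 5 and 611 CPM at day 0 in cells with none. Cluster 6, rich in Dpp4, held 15.6% of all Cd34 UMIs from 5.77% of cells at day 5. At day 0 it held 31.1% from 15.3% of cells. The part of this cluster and of depth in these levels was not tested.

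**Figure D3:**
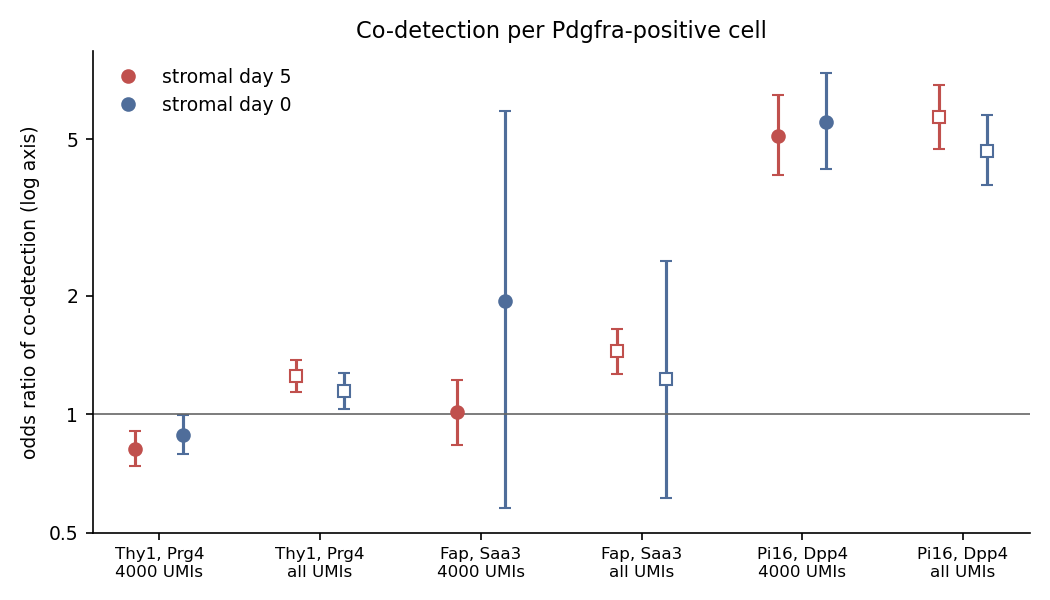
Odds ratio of co-detection per Pdgfra-positive cell (log axis) for the pairs Thy1 and Prg4, Fap and Saa3, and Pi16 and Dpp4, at day 5 (red) and day 0 (blue), in cells thinned to 4000 UMIs (filled circles) and with all UMIs (open squares); bars are exact 95% counting intervals. Thy1 with Prg4 lies below 1 when thinned (0.818 at day 5, 0.889 at day 0) and above 1 when not, and Pi16 with Dpp4 lies near 5 in all settings shown.

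Among all 36 pairs of the 9 genes, the interval of the odds ratio lay above 1 for 25 pairs at day 5 and 27 at day 0, and below 1 for 3 pairs at day 5 and 4 at day 0. Every pair below 1 held Fap. With Ly6a it had an odds ratio of 0.66 (0.58 to 0.75) at day 5 and 0.51 (0.42 to 0.61) at day 0, and with Ly6c1 0.70 (0.62 to 0.79) at day 5 and 0.51 (0.43 to 0.61) at day 0. Cd34 with Fap gave 0.86 (0.78 to 0.95) at day 5 and 0.73 (0.64 to 0.84) at day 0. The strongest link was Ly6a with Ly6c1, at 9.74 (8.53 to 11.1) at day 5 and 27.3 (22.1 to 33.8) at day 0. Pdgfra-positive cells include osteoblast-like cells (210 at day 5 and 180 at day 0, before thinning). That cluster was higher in Fap and lower in the other 8 genes than fibroblasts, and its part in these odds ratios was not tested. Pdpn had odds ratios with the other 8 genes from 1.02 to 1.67 at day 5 and from 1.06 to 1.79 at day 0. Its interval lay above 1 with 4 of them at day 5 and 6 at day 0, and the highest value was with Ly6a, 1.67 (1.45 to 1.94) at day 5 and 1.79 (1.43 to 2.25) at day 0. The median over all 36 pairs was 1.83 at day 5 and 3.02 at day 0. A thinned cell held a median of 4 of the 9 genes on both days. The share of cells with 7 or more was lower at day 5 (529 of 9051 cells) than at day 0 (567 of 5999 cells).

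**Figure D4:**
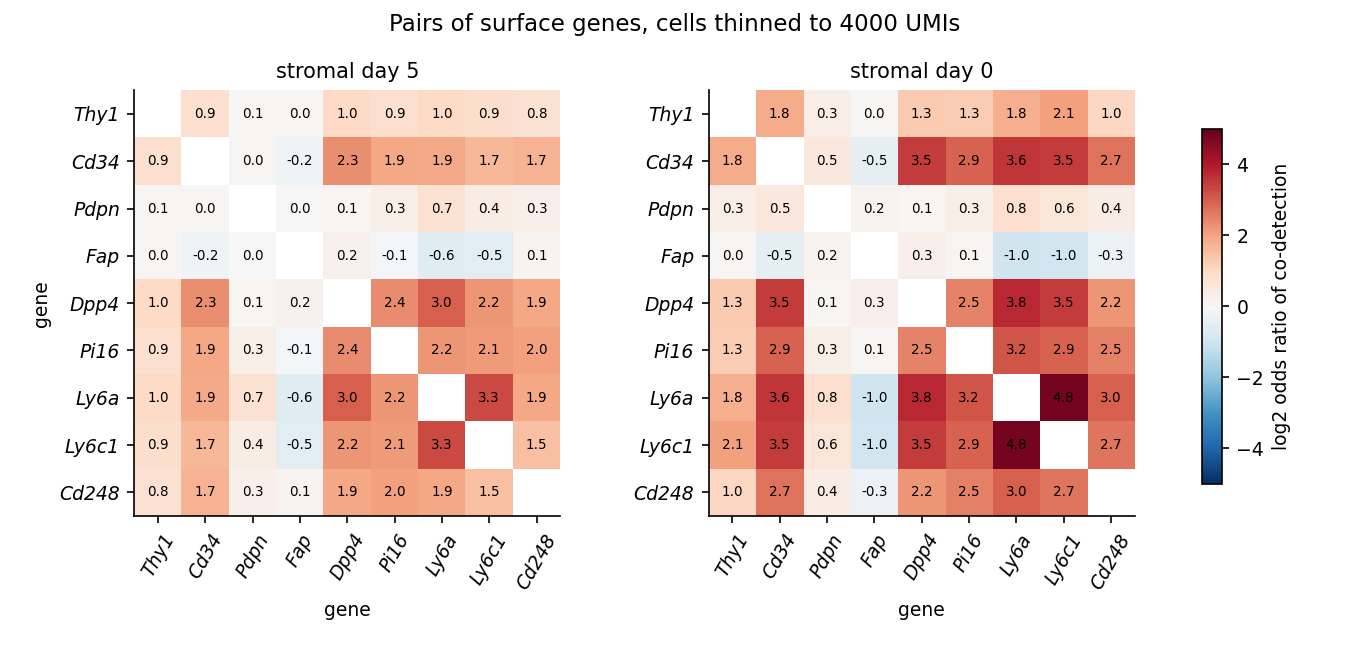
Log2 odds ratio of co-detection for each pair of the 9 genes in Pdgfra-positive cells thinned to 4000 UMIs, at day 5 (left) and day 0 (right); red is above 0 and blue below. Ly6a with Ly6c1 is the deepest red (odds ratio 9.74 at day 5, 27.3 at day 0), and every pair whose interval lies below 1 is in the Fap row. The median odds ratio over all 36 pairs is 1.83 at day 5 and 3.02 at day 0.

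All tenocyte-like cells, with or without Pdgfra (1040 at day 5, 831 at day 0), were compared with the Pdgfra-positive cells of the fibroblast clusters. Each comparison was within a library, and the part of this unlike choice of cells was not tested. Tenocyte-like cells carried Ly6c1 at the fibroblast level and Thy1 near it, and were low in Cd248, Pi16, Cd34 and Pdpn. These 4 of the 9 genes were at least 1.5-fold lower in both libraries and 0 were at least 1.5-fold higher, against 13.4% and 5.60% of 14167 genes. Cd248 had 19.5 CPM in tenocyte-like cells and 132 CPM in fibroblasts at day 5, and 21.7 CPM in tenocyte-like cells and 251 CPM in fibroblasts at day 0. Pi16 had 288 CPM in tenocyte-like cells and 1097 CPM in fibroblasts at day 5, and 233 CPM in tenocyte-like cells and 1287 CPM in fibroblasts at day 0. Cd34 had 159 CPM in tenocyte-like cells and 379 CPM in fibroblasts at day 5, and 344 CPM in tenocyte-like cells and 755 CPM in fibroblasts at day 0.

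A further comparison left out the 5 fibroblast clusters with another type's markers among their leading genes. The same 4 genes were at least 1.5-fold lower and 0 higher, with Cd248 at a ratio of 0.148 at day 5 and 0.0745 at day 0. That setting was added after the data were seen.

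Thy1 had 77.0 CPM in tenocyte-like cells and 78.6 CPM in fibroblasts at day 5, and 88.96 CPM in tenocyte-like cells and 111 CPM in fibroblasts at day 0. Ly6c1 had 1119.8 CPM in tenocyte-like cells and 1107 CPM in fibroblasts at day 5, and 1651 CPM in tenocyte-like cells and 1655 CPM in fibroblasts at day 0. The ratio of Ly6a to fibroblasts was 0.802 at day 5 and 0.768 at day 0, that of Dpp4 0.819 at day 5 and 0.681 at day 0, and that of Fap 0.724 at day 5 and 0.573 at day 0. Cells of this cluster with a Pdgfra UMI (55.1% at day 5, 64.5% at day 0) had more Cd34 and Pi16 than those without. Cd34 was at 198 CPM with Pdgfra and 91.5 CPM without it at day 5, and at 410.0 CPM with it and 190.0 CPM without it at day 0.

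Between days, tenocyte-like cells had 2.16-fold less Cd34 at day 5 (2.03 to 2.30) and 1.47-fold less Ly6c1 (1.44 to 1.51). Fap (ratio 1.31, 1.15 to 1.49), Pdpn (1.29, 1.14 to 1.46) and Pi16 (1.24, 1.17 to 1.31) were higher at day 5. With that, 1 of the 9 genes was at least 1.5-fold lower and 0 at least 1.5-fold higher, against 8.81% and 9.71% of 12210 genes (18.5% either). Haemoglobin RNA moved with the day in this cluster: 5 erythroid genes summed to 2023 CPM at day 5 and 12.03 CPM at day 0 (5 genes seen at day 5, 4 at day 0). Its part in these values was not tested.

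Fap was the 1 gene of the 9 that was higher in osteoblast-like cells (382 at day 5, 347 at day 0). They had 344 CPM of Fap (1287 UMIs) against 80.9 CPM in fibroblasts at day 5, and 311 CPM (1017 UMIs) against 78.1 CPM at day 0. That is 4.26-fold higher at day 5 and 3.98-fold higher at day 0. Fap was in 66.9% of thinned osteoblast-like cells at day 5 and 62.0% at day 0, against 24.97% and 23.2% of fibroblasts. Osteoblast-like cells with no Pdgfra UMI had it too (325 CPM at day 5, 304 CPM at day 0). The 5 fibroblast clusters with another type's markers among their leading genes were also left out. The Fap ratio was then 4.401 at day 5 and 4.12 at day 0, and the same 8 genes were lower.

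The other 8 genes were at least 1.5-fold lower in osteoblast-like cells in both libraries. Among 14101 genes, 15.3% were at least 1.5-fold lower in both and 13.6% at least 1.5-fold higher in both. Pdpn was the least reduced, at 37.999 CPM in osteoblast-like cells and 144 CPM in fibroblasts at day 5, and 34.5 CPM in osteoblast-like cells and 92.0 CPM in fibroblasts at day 0. Cd34 had 28.1 CPM in osteoblast-like cells and 379 CPM in fibroblasts at day 5, and 24.4 CPM in osteoblast-like cells and 755 CPM in fibroblasts at day 0. Thy1 had 7.23 CPM (27 UMIs) in osteoblast-like cells and 78.6 CPM in fibroblasts at day 5, and 5.80 CPM (19 UMIs) in osteoblast-like cells and 111 CPM in fibroblasts at day 0. Dpp4 had 2 UMIs at day 5 and 0 at day 0 in all osteoblast-like cells. Between days Fap had a ratio of 1.11 (1.02 to 1.21) in these cells. Pi16 (2.51, 1.92 to 3.32) and Cd248 (1.503, 0.974 to 2.35) were at least 1.5-fold higher at day 5 and none of the 8 genes with UMIs on both days was at least 1.5-fold lower, against 8.74% and 6.27% of 11092 genes (15.0% either). Cd248 had 60 UMIs at day 5 and 35 at day 0.

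**Figure D5:**
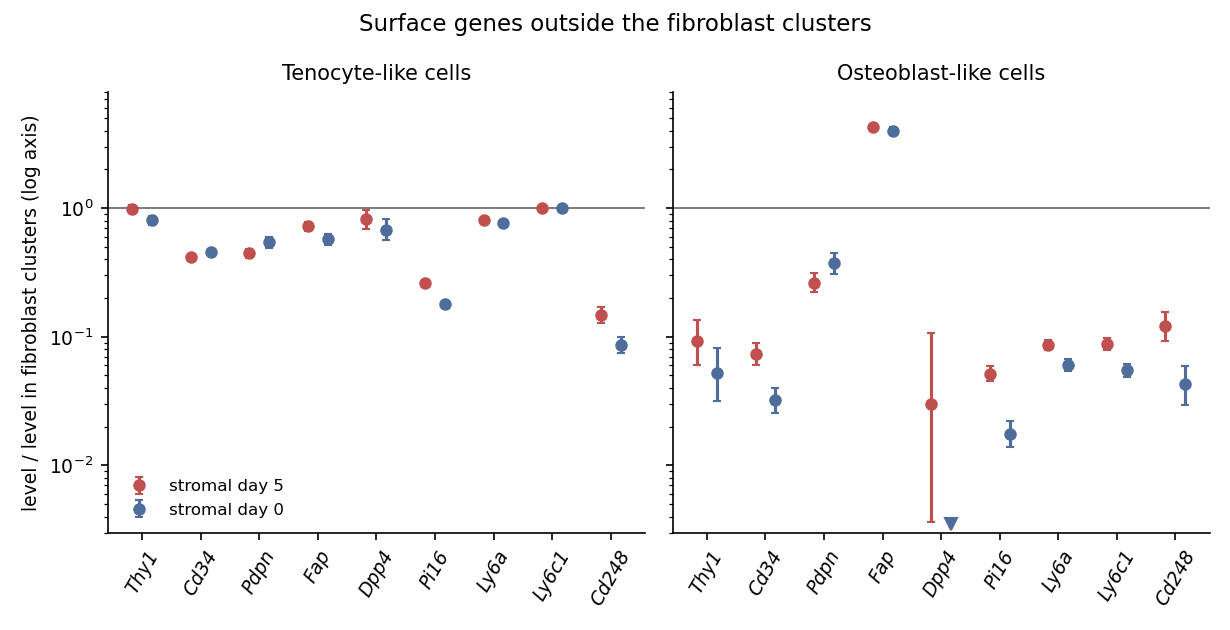
Level of each gene in tenocyte-like cells (left) and osteoblast-like cells (right), divided by its level in the Pdgfra-positive cells of the fibroblast clusters of the same library (log axis), at day 5 (red) and day 0 (blue); bars are exact 95% counting intervals and the triangle marks Dpp4 at 0 UMIs. Fap is the gene above the line in osteoblast-like cells (4.26 at day 5, 3.98 at day 0), and Cd248 is the lowest in tenocyte-like cells (0.147 at day 5, 0.0866 at day 0).

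Small clusters of other stromal cells gave levels with wide intervals. Blood endothelial cells (75 at day 5, 105 at day 0) had 632 CPM of Cd34 at day 5 and 684 CPM at day 0, and 1455 CPM of Ly6c1 at day 5 and 2464 CPM at day 0. Endothelial Ly6c1 was thus lower at day 5, with a ratio of 0.591 (0.554 to 0.629), while the Cd34 ratio was 0.925 (0.830 to 1.03). The erythroid genes summed to 379.5 CPM at day 5 and 14.7 CPM at day 0 in these cells, and their part was not tested. Mural cells (20 at day 5, 15 at day 0) had 544 CPM of Thy1 at day 5 and 168 CPM at day 0. The cycling cluster (293 cells with a median of 3259 UMIs at day 5, 15 cells with 13720 UMIs at day 0) had 326 CPM of Pdpn at day 5 and 111 CPM at day 0.

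In the myeloid library of day 9, Pdpn had the highest CPM of the 9 genes, in counts not scaled by gene length. It had 125 CPM (122 to 128) and was in 30.3% of cells, and a cluster of 736 cells led by Spp1, Cxcl3, Pdpn and Arg1 had 731 CPM (707 to 754). Ly6a had 62.7 CPM (60.7 to 64.7), with 575 CPM in 33 blood endothelial-like cells and 453 CPM in a cluster with the T-cell genes Cd3d and Cd3g among its leading genes. Dpp4 had 12.8 CPM and was highest in dendritic cell-like cells, at 139 CPM. Pi16 had 10.6 CPM and was highest in a monocyte-like cluster led by Ly6c2, at 97.9 CPM. Thy1 had 9.84 CPM. Of its 604 UMIs, 460 were in that cluster of 212 cells with Cd3d and Cd3g (162 CPM, 63.2% of cells), and 45 were in 55 T or NK cell-like cells (168 CPM). Ly6c1 had 6.97 CPM, and 378 of its 428 UMIs were in 33 blood endothelial-like cells. Cd34 had 5.31 CPM, Fap 0.847 CPM and Cd248 0.244 CPM. Of the 15 Cd248 UMIs, 14 were in a cluster of 25 cells led by Col1a2, Col1a1 and Dcn. This library differs from the stromal ones in sort and day, and levels are not compared between them.

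Related genes were counted in the same Pdgfra-positive cells, and the counts are set against the 10.0% of all genes counted that were at least 1.5-fold higher and the 7.97% that were at least 1.5-fold lower. In the Ly6 and uPAR family 14 of 18 genes had at least 20 UMIs, 1 of them was at least 1.5-fold higher at day 5 and 4 were lower, 1 of them Ly6c1 itself, with a median log2 ratio of -0.31. Some of these rest on few UMIs, such as Lypd1 with 52 at day 5 and 49 at day 0. Slurp1, a secreted member, had 11.3 CPM at day 5 and 41.1 CPM at day 0, and Gpihbp1, which carries lipoprotein lipase in capillaries, had 0.362 CPM at day 5 and 0.861 CPM at day 0. Ly6k had 2.11 CPM at day 5 and 0.653 CPM at day 0, and Ly6h 2.28 CPM at day 5 and 1.75 CPM at day 0.

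Among 11 peptidases related to Fap and Dpp4, 1 was higher and 1 was lower, near the shares over all genes, with a median of 0.05. Dpp6 had 60 UMIs at day 5 and 21 at day 0 (ratio 1.79, 1.07 to 3.09), and Dpp10 11 UMIs at day 5 and 12 at day 0 (0.573, 0.229 to 1.42). The cytosolic peptidases Dpp8 and Dpp9 had ratios of 0.734 and 1.17.

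Of 15 counted binding partners and substrates (21 listed), 1 was higher and 2 were lower, again near those shares (median -0.15). Cxcl10, a chemokine that Dpp4 trims, had 40.8 CPM at day 5 and 26.5 CPM at day 0, and Cd44, a hyaluronan receptor that binds podoplanin, had 92.5 CPM at day 5 and 72.2 CPM at day 0. The integrin gene Itgb3 had 7.14 CPM at day 5 and 11.7 CPM at day 0, and Ezr, which encodes ezrin, a linker of podoplanin to actin, had 31.8 CPM at day 5 and 48.7 CPM at day 0.

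Of 22 other surface genes of synovial fibroblasts, 2 were higher and 2 were lower, near those shares too (median 0.06). Vcam1, an adhesion ligand, had 123 CPM at day 5 and 79.8 CPM at day 0, and Mcam had 140 UMIs at day 5 and 17 at day 0. Cd55, which limits complement, had 121 CPM at day 5 and 240.4 CPM at day 0, and Cd200 65.0 CPM at day 5 and 104 CPM at day 0. In the list of sialomucins and endosialin relatives, which includes Cd34 and Cd248, 2 of 8 genes were higher and the 2 lower ones were Cd34 and Cd248 themselves (median -0.11). Emcn and Clec14a, both known from endothelium, were the higher ones, with ratios of 1.71 and 1.51.

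The genes whose levels were most like each member were sought over 36 pools (cluster by library, at least 50 cells) among 5134 genes, by Pearson's r of log2(CPM + 10). The pools share libraries and clusters, so r is a description. Ly6a and Ly6c1 were each other's nearest gene (0.94), followed by Irak3 for Ly6a (0.90) and Cr1l for Ly6c1 (0.85). Cd34 was most like Trip10 (0.91) and Tmod2 (0.90), Thy1 like Tmod2 (0.86) and Fbn1 (0.85), and Pi16 like the scavenger receptor gene Scara5 (0.86) and Fbn1 (0.83). Cd248 was most like Emilin2 (0.90) and Sdk1 (0.88), and Dpp4 like Ston2 (0.87) and the serotonin transporter gene Slc6a4 (0.84). Fap was most like Mxra8 (0.87) and Epdr1 (0.80). Pdpn had the weakest matches, Colgalt1 (0.79) and Glipr2 (0.76). Over the same pools, which include the osteoblast-like cluster, Fap had r of -0.52 with Ly6c1 and -0.40 with Cd34.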

How the data were processed

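The authors deposited UMI counts per gene and cell barcode, and per the file headers Cell Ranger 6.0.1 was used, with the mm10 build and Seurat 4.3.0 named in the submitters' processing notes without a role. Values are whole numbers. The 9 genes and the gene lists were chosen with earlier results of these data known, and named genes follow fixed rules: all 9, the 2 highest and 2 lowest ratios of each list, and the 2 most alike genes over pools.

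Deposited barcodes numbered 11900 (stromal day 5), 7740 (stromal day 0) and 7795 (myeloid day 9), of which 11172, 7368 and 5945 passed the filters given above. Passing stromal cells were log-normalized to 10000 UMIs and clustered together without integration (scanpy 1.11.5; 2000 variable genes, 30 components, 15 neighbours, Leiden resolution 1). A cell type name needed at least 3 markers at 20 CPM in 10% of cells and a mean log2 fold of 2 (1.5 for fibroblast states). A fibroblast cluster needed 5 of 7 markers. Scrublet called 0 and 2 doublets, so none were removed, and an alternative left out the highest scores (0.8% per 1000 barcodes). Sums per library gave exact Poisson, binomial and conditional odds ratio intervals (SciPy 1.17.1). On simulated data the ratio intervals were checked for coverage, with counting error alone, and the odds ratios for their estimates. The other intervals were not checked in this way. All intervals cover counting error only. A share of 0 allows up to 3 counts of the total. TMM (edgeR 4.0.16) and DESeq2 1.42.0 size factors served only as alternative scalings. Coordinates are from GENCODE M21 (mm10).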

Additional observations from a re-analysis of the deposited data

Results flagged for a closer look

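Pi16 went opposite ways between days in different cells. In the Pdgfra-positive cells of the fibroblast clusters its ratio of day 5 over day 0 was 0.853 (0.845 to 0.861), in tenocyte-like cells 1.24 (1.17 to 1.31) and in osteoblast-like cells 2.51 (1.92 to 3.32). The osteoblast-like value rests on 212 UMIs in 382 cells at day 5 and 74 UMIs in 347 cells at day 0, and in osteoblast-like cells without Pdgfra it was 0.698 (0.263 to 1.76). Blood endothelial cells also had more Pi16, 358 CPM at day 5 and 166 CPM at day 0, and its part in these values was not tested.

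Ly6a also differed in direction. Its ratio was 0.858 (0.851 to 0.866) in the fibroblast clusters and 0.896 (0.873 to 0.920) in tenocyte-like cells, against 1.24 (1.07 to 1.43) in osteoblast-like cells, where 467 UMIs were counted at day 5 and 331 at day 0. These results stand here because their counting intervals lie on opposite sides of 1 in different cell types. The difference was not tested, since each day is 1 library.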

How the results depend on the processing

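The ratios of day 5 over day 0 were recomputed under 17 other settings. Cd34 stayed between 1.58-fold and 2.17-fold lower at day 5 and Cd248 between 1.53-fold and 2.03-fold lower. Ly6c1 ran from 1.35-fold to 1.59-fold lower, and the number of genes at least 1.5-fold lower was 2 or 3 in every setting. Pdpn and Dpp4 depended most on the setting, with ratios from 0.980 to 1.92 for Pdpn and from 0.674 to 1.43 for Dpp4. The number of genes at least 1.5-fold higher was 0 with the mean of each cell's CPM (Pdpn ratio 1.36), with cells thinned to 2000 UMIs (1.38), without cells with Saa3 (1.45), outside the Saa3-led cluster (1.05), with clusters weighted equally (1.07) and with day 0 weights (0.980, reversed). It was 1 in the other 11. Dpp4 was above 1 in 3 settings, outside the Saa3-led cluster (1.02) and in both weightings (1.40 and 1.43). Its lowest ratio, 0.674, came without the clusters that had another type's markers among their leading genes. TMM and median-of-ratios scaling multiplied every ratio by 0.998 and 0.993.

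The odds ratio of Thy1 with Prg4 reversed without thinning (1.25 at day 5, 1.15 at day 0) and, at day 5, with at least 20 Prg4 UMIs counted without thinning (1.21). At 2000 UMIs it was 0.925 at day 5 and 0.721 at day 0, and with at least 20 Prg4 UMIs 0.695 at day 0. Fap with Saa3 at day 5 was 1.45 without thinning and 1.24 outside the Saa3-led cluster. Pi16 with Dpp4 at day 5 was 8.25 with at least 2 UMIs of each gene and 6.72 in fibroblast clusters alone. The cause of these changes was not tested. Fap with Saa3 at day 0 gave no value with at least 2 UMIs of each or at 2000 UMIs. In tenocyte-like cells 4 to 6 genes were at least 1.5-fold lower over 5 other clusterings or cell sets, Cd34, Pdpn, Pi16 and Cd248 in each, and in osteoblast-like cells 7 or 8, with Fap the 1 gene higher in each. The cells so named changed with the setting. Tenocyte-like cells numbered 1295 at day 5 and 1168 at day 0 at resolution 0.5, and 592 and 199 at resolution 2. Osteoblast-like cells numbered 1125 and 921 at resolution 0.5, against 382 and 347 in the main clustering. Neither gene count moved when the 5 fibroblast clusters with another type's markers among their leading genes were left out. No paired analysis was possible because each group is 1 library. No replicate could be left out for the same reason. Settings that use the Saa3-led cluster, day 0 weights or 20 Prg4 UMIs were chosen after seeing the data. So were those that leave out clusters with another type's markers among their leading genes.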
